A study of Mus musculus with 9 samples.

Results

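The genes that make, break down, bind or sense retinoic acid were followed in the developing mouse cochlear duct. They were the aldehyde dehydrogenases Aldh1a1, Aldh1a2 and Aldh1a3, the cytochrome P450 enzymes Cyp26a1 and Cyp26b1, the cellular binding proteins Crabp1 and Crabp2, and the receptors Rara, Rarb and Rarg, 10 of the 54232 genes counted, taken by symbol through the Ensembl identifiers of the count files. All 10 passed the filter on low counts in each comparison. RNA was sequenced from E14.5 embryos of 3 Prdm16 genotypes, with 3 WT, 3 heterozygote (Prdm16 cGT/+) and 3 null (Prdm16 cGT/cGT) embryos and one library per embryo, made from the cochlear ducts of both inner ears. cGT is a gene trap null allele of Prdm16, a transcriptional regulator found in the Kölliker's organ epithelium, and the embryos, described as littermates, came from heterozygote matings. The allele is present throughout the embryo, so its effects are not limited to the duct. The comparisons ask how retinoic acid pathway RNA differed between cochlear ducts with 2, 1 or 0 intact copies of Prdm16.

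Retinoic acid is made from vitamin A. Retinol is oxidized to retinaldehyde, and the Aldh1a enzymes oxidize retinaldehyde to retinoic acid. Cyp26 enzymes hydroxylate retinoic acid and so clear it, while Crabp proteins carry it in the cytoplasm. In the nucleus it binds RAR receptors, which sit on DNA as heterodimers with RXR receptors at paired hexamer half-sites called retinoic acid response elements. In the ear, local synthesis and breakdown of retinoic acid help to pattern the otic vesicle, and retinoic acid affects hair cell formation in the embryonic cochlea.

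Response elements were searched for in the RefSeq promoter windows of the GRCm38.p6 (mm10) assembly, each spanning 250 bases before to 50 bases after a transcript start, as direct repeats with a spacer of 1, 2 or 5 bases on either strand. A half-site was AGGTCA as in the textbook element, AGTTCA as in many natural elements, or one of the related hexamers written GGTTCA and, with another middle base, GGGTCA. Windows were found for 8 of the 10 genes (Aldh1a3 and Crabp2 had no entry), and 2 of these 8 genes held a match, the receptor gene Rarb and the breakdown gene Cyp26a1, both with a spacer of 5 bases. Such a spacing was found in 32 of 32851 windows (0.0974%), and any of the 3 spacings in 193 (0.588%). These shares are per window and the 2 of 8 is per gene, and some of the 8 genes had several windows, as given below. Both stretches are shown because these genes carry a sequence match to the sites the receptors are known to bind. They are given 5′ to 3′ on the strand of the gene up to the base before the start, with the half-sites in capitals.

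Rarb: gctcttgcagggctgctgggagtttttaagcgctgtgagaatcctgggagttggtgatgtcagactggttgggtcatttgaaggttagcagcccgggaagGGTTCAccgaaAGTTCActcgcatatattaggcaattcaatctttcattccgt

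Cyp26a1: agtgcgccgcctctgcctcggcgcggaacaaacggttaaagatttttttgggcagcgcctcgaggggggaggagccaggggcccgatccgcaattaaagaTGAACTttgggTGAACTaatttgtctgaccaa

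The Rarb stretch lies at chr14:16575477-16575629 on the minus strand, and its repeat at chr14:16575513-16575529 reads in the direction of the gene, from 53 to 37 bases before the start. The Cyp26a1 stretch lies at chr19:37697676-37697807 on the plus strand, and its repeat at chr19:37697776-37697792, from 32 to 16 bases before the start, reads as a direct repeat of AGTTCA on the opposite strand. The windows of Aldh1a1 (2 starts), Aldh1a2, Cyp26b1, Crabp1, Rara (4 starts) and Rarg (2 starts) held none of these letters, which says nothing of sites elsewhere. A match is a description of the sequence and no evidence of binding in these cells.

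Total counts per library ranged from 24095322 to 30819118. Prdm16 itself was at 225, 197 and 184 CPM (counts scaled here to a common library size with TMM factors) in WT, at 151, 123 and 141 CPM in heterozygotes and at 23.7, 19.1 and 27.4 CPM in null embryos, so that its level followed the labelled genotypes. All 7 markers of the duct epithelium were detected in all 9 libraries, with summed levels of 6053 to 7137 CPM in WT and heterozygotes and 5069 to 5788 CPM in null embryos. The lower null sums lay with Tecta, which encodes a tectorial membrane protein, at 1392 to 1641 CPM against 2497 to 3229 CPM elsewhere. Libraries differed in RNA of neighbouring tissue. The 7 mesenchyme markers summed to 415, 837 and 96.0 CPM in WT embryos 1, 2 and 3, to 39.4, 83.7 and 58.8 CPM in heterozygotes and to 54.4, 28.9 and 1281 CPM in null embryos, so WT 1, WT 2 and null 3 stood apart. The 6 cartilage markers (Acan, Matn1, Matn3, Hapln1, Cytl1 and Snorc), chosen after the data were seen, summed to 1612 CPM in null 3 and to 10.2 to 32.5 CPM in the other 8 libraries. The 5 endothelium markers summed to 73.0 and 59.1 CPM in WT 1 and WT 2 and to 42.8 CPM in null 3, against 2.42 to 5.77 CPM elsewhere, where Cdh5 was at 0 in at least one library. The 4 melanocyte markers summed to 82.2, 122 and 50.8 CPM in WT, 19.0 to 37.6 CPM in heterozygotes and 11.3 to 39.8 CPM in null embryos, so that all WT embryos, WT 3 included, lay above the others, and Mlana was at 0 in null 1. The WT libraries rich in mesenchyme and null 3 also held the most RNA of the 4 immune markers, at 7.20 to 14.8 CPM against 1.26 to 2.68 CPM. Results of several of the 10 genes are therefore also given without WT 1, WT 2 and null 3. In dissected tissue, fewer cells of a type and less RNA per cell cannot be told apart.

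Per unit of exon length the 10 genes covered a wide range. Crabp2, which delivers retinoic acid to the receptors, led with a median of 115.9 RPKM (CPM per kilobase of exon, computed here) over the 9 libraries and a range of 84.9 to 127 RPKM, above each of the other 9 genes in every library. Cyp26b1 followed at a median of 41.0 RPKM. A middle group of Aldh1a3 at 23.5, Rara at 22.6, Cyp26a1 at 18.6, Aldh1a1 at 16.4 and Rarg at 14.4 RPKM had overlapping ranges, so that the order within it is not resolved. Crabp1 had a median of 6.59 RPKM and ranged from 0.362 to 19.9 RPKM, the widest spread as a ratio of highest to lowest library (55.1). Rarb at 1.21 RPKM and Aldh1a2 at 0.641 RPKM were the lowest, and their ranges overlapped as well. Below Crabp2, each gene in this order overlapped the range of the next. The RXR partners had higher medians than the receptors themselves, 48.9 RPKM for Rxrg, 32.5 RPKM for Rxra and 26.4 RPKM for Rxrb. Since Rarb shares 1793 exon bases (34.1% of its exon length) with Top2b on the opposite strand, and Top2b lay at 24.7 to 31.1 RPKM against 0.604 to 2.23 RPKM for Rarb, part of the Rarb count may belong to Top2b, as the use of strand in counting is not given in the sources used here.

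**Figure D1:**
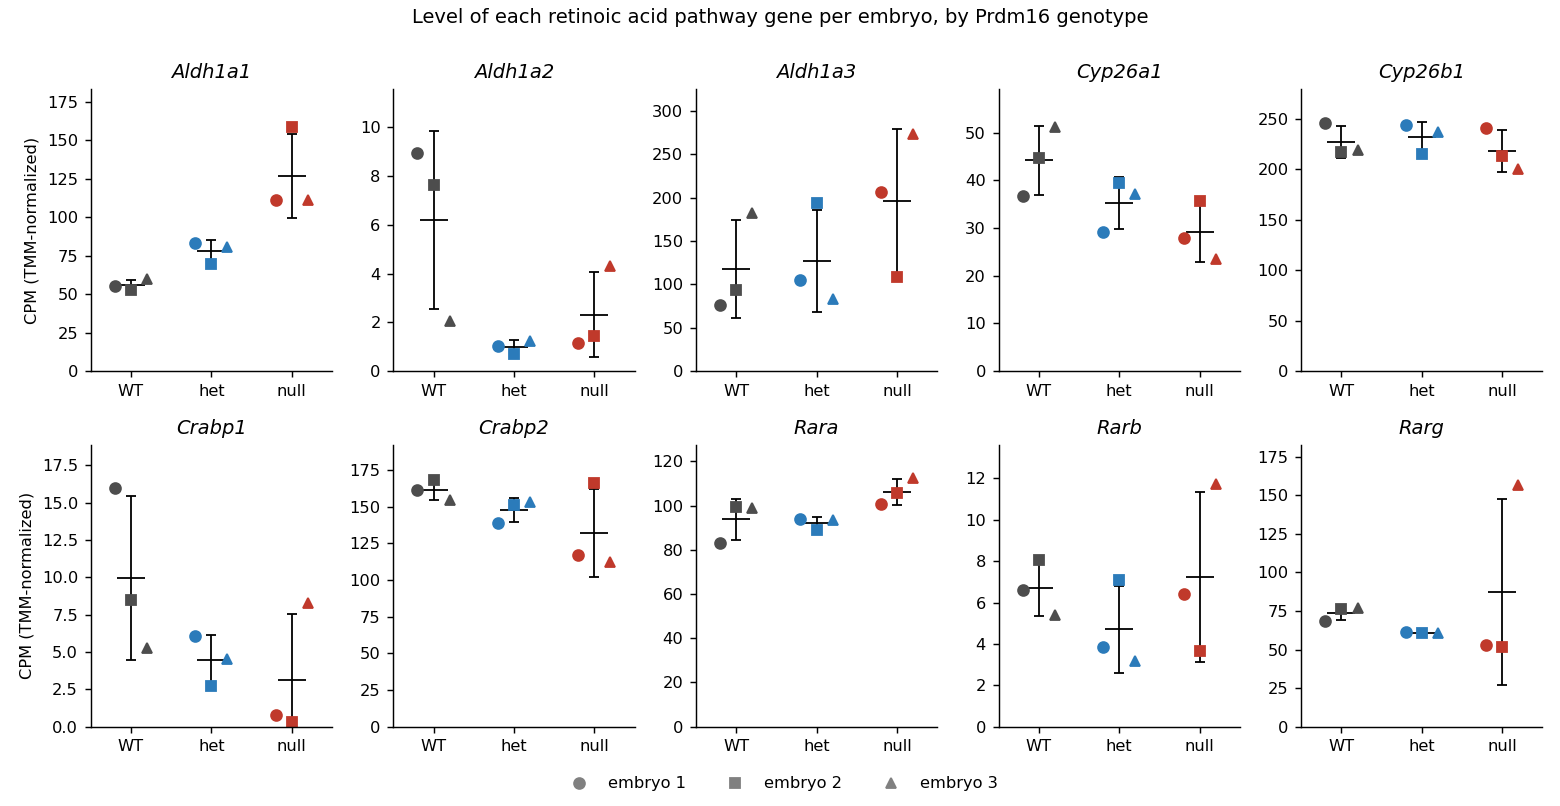
Level of each gene in CPM (vertical axes, starting at 0) in each embryo, by genotype. Symbols mark embryos 1 to 3, horizontal marks the mean and bars 1 SD (n = 3 per genotype). Aldh1a1 rises in non-overlapping steps from 53.0 to 59.9 CPM in WT to 111 to 158 CPM in null embryos, and null 3 lies apart from the other null embryos in Rarg, Rarb, Aldh1a2 and Crabp1.

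Among the synthesis enzymes, Aldh1a1 (ENSMUSG00000053279, mm10 chr19:20492715-20643465, plus strand) increased with loss of Prdm16. It was at 55.1, 53.0 and 59.9 CPM in WT embryos, at 83.2, 69.6 and 80.8 CPM in heterozygotes and at 111, 158 and 111 CPM in null embryos. The 3 genotypes did not overlap, and heterozygotes lay between WT and null embryos. The mean was 56.0 ± 3.53 CPM in WT, 77.8 ± 7.25 CPM in heterozygotes and 127 ± 27.2 CPM in null embryos (SD, n = 3 each). In null embryos against WT this was a 2.26-fold increase (log2 fold change 1.18 with a standard error, SE, of 0.146, edgeR adjusted p = 0.00834), and Aldh1a1 was the 1 of the 10 genes counted as differentially expressed. A gene was counted so when its adjusted p was below 0.05 and its log2 fold change was beyond 0.5 in either direction. Of all 17168 genes tested in this comparison, 1.71% were counted. The adjusted p was 0.0646 without WT 1 and 0.0747 without WT 2, with log2 fold changes of 1.17 and 1.15.

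In heterozygotes against WT, Aldh1a1 was higher by 0.47 on the log2 scale (SE 0.0751, edgeR adjusted p = 0.0484), past the p threshold and under the fold threshold. Its adjusted p ranged from 0.00326 to 0.235 when each embryo was left out, and both thresholds were passed without WT 3. The p threshold was missed with limma-voom (adjusted p = 0.0648), with edgeR on genes of a mean count over 100 (adjusted p = 0.0504) and with all 9 libraries in one edgeR fit (adjusted p = 0.624). In null embryos against heterozygotes it was higher by 0.71 (SE 0.147, edgeR adjusted p = 0.104). Without null 3 the latter was 0.79, with an edgeR adjusted p of 0.0375, and DESeq2 gave an adjusted p of 4.28e-04 on all 6 libraries. These comparisons share samples, so their values are not independent of each other. With WT 1, WT 2 and null 3 all left out, and the 6 remaining libraries of 3 genotypes fitted together, Aldh1a1 was still higher in null embryos than in WT by 1.18 (edgeR adjusted p = 0.0273) and than in heterozygotes by 0.80 (edgeR adjusted p = 0.0340), while the difference of heterozygotes from WT was 0.38 (edgeR adjusted p = 0.9998). That fit holds 1 WT library, whose spread is taken from the other genotypes, and it counted 1.09% of 19133 genes as changed between null and WT and 1.05% between null and heterozygote.

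Some markers of other duct regions moved alongside Aldh1a1. The 6 roof markers, all detected in every library, summed to 8012 to 9396 CPM in WT, 9609 to 10150 CPM in heterozygotes and 10820 to 14200 CPM in null embryos. Most of that sum was Oc90, an otoconial protein of the roof, at 7242 to 8455, 8755 to 9175 and 10030 to 13370 CPM. The mean log2 CPM of the 6 markers, which weights them equally, overlapped between genotypes, at 7.62 to 7.87 in WT, 7.83 to 7.93 in heterozygotes and 7.84 to 8.13 in null embryos, and Lrp2 was at 461 to 574 CPM in WT and 322 to 466 CPM in null embryos. The 3 outer sulcus markers summed to 1006 to 1159, 1069 to 1285 and 1233 to 1709 CPM. Over the 9 libraries, which also differ in genotype, the log2 level of Aldh1a1 had a Pearson r of 0.85 with the mean log2 CPM of the roof list, 0.91 with that of the outer sulcus list, -0.83 with that of the melanocyte list and -0.44 with that of the mesenchyme list. After each genotype's mean was removed, r was 0.78, 0.80, -0.62 and -0.66 for these lists in turn. The part of these tissues in the change of Aldh1a1 was not tested. The genes whose log2 CPM followed Aldh1a1 most closely among 17796 were Tlr2 (r = 0.989), Wnt4 (r = 0.981) and Anxa5 (r = 0.980), all over the same 9 libraries. Tlr2 is an innate immune receptor, Wnt4 a secreted Wnt ligand and Anxa5 a phospholipid-binding annexin. Anxa5 was at 240 to 245 CPM in WT, 305 to 323 CPM in heterozygotes and 489 to 649 CPM in null embryos. Aldh1a7, a close relative encoded beside Aldh1a1 on chromosome 19, was at 28.7, 31.6 and 32.5 CPM in WT, 35.4, 39.2 and 41.1 CPM in heterozygotes and 38.7, 52.2 and 37.7 CPM in null embryos. Its null values lay above its WT values, with a log2 fold change of 0.47 that did not pass the test (SE 0.143, edgeR adjusted p = 0.216). Of the 4934 distinct 50-base stretches in Aldh1a1 transcripts, 151 (3.06%) also occur in Aldh1a7, where they are 7.49% of 2017. A small part of the reads could therefore be shared between them.

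Aldh1a2, the enzyme that supplies most retinoic acid to early embryonic mesoderm, was low in all libraries and highest in those with much mesenchyme RNA. It was at 8.92, 7.64 and 2.07 CPM in WT, 1.04, 0.720 and 1.24 CPM in heterozygotes and 1.16, 1.45 and 4.31 CPM in null embryos. Heterozygotes lay wholly below WT, and null embryos overlapped both. The log2 fold change was -2.63 in heterozygotes against WT (SE 0.490, edgeR adjusted p = 0.0636; DESeq2 adjusted p = 0.00390) and -1.44 in null embryos against WT (SE 0.642, edgeR adjusted p = 0.428). Over the 9 libraries its log2 level had an r of 0.86 with the mesenchyme list, 0.91 with the endothelium list, 0.95 with the immune list and 0.76 with the melanocyte list. Against the 1 WT library low in mesenchyme RNA, the values came to -1.04 in heterozygotes (edgeR adjusted p = 0.9998) and -0.65 in null embryos (edgeR adjusted p = 0.676). The values of the heterozygotes and of null 1 and null 2 rest on 20 to 45 reads.

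Aldh1a3 was the synthesis enzyme with the most RNA per length in 8 of the 9 libraries, and it varied within each genotype. It was at 76.7, 93.5 and 182 CPM in WT, 105, 193 and 82.7 CPM in heterozygotes and 206, 108 and 274 CPM in null embryos. All genotypes overlapped. The log2 fold change in null embryos against WT was 0.73 (SE 0.397, edgeR adjusted p = 0.522), and it was -0.21 in the fit without the 3 mesenchyme-rich libraries (edgeR adjusted p = 0.891). That fit, chosen after the data were seen, holds WT 3 alone of the WT embryos, the one with the most Aldh1a3, while the difference was positive in each of the 6 fits that left out an embryo (0.41 to 1.20) without passing the test.

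**Figure D2:**
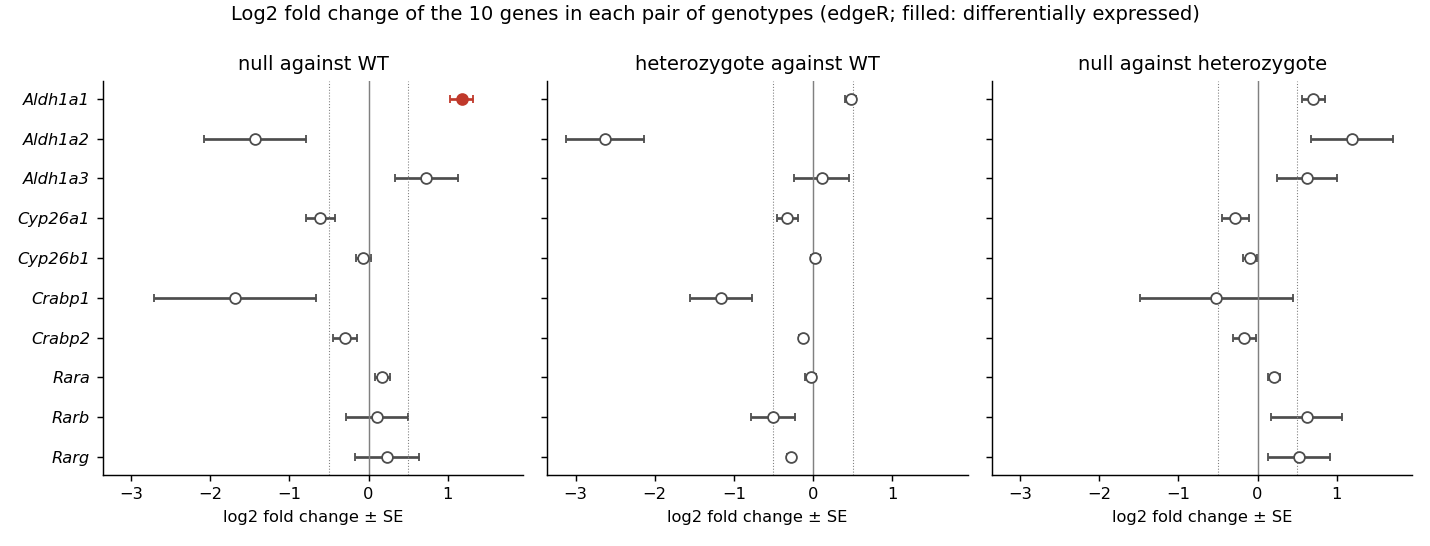
Log2 fold change (horizontal axis) of each gene with its standard error in the 3 pairs of genotypes, 3 embryos against 3. The filled red point, Aldh1a1 in null against WT at 1.18, is the only value past both thresholds, and dotted lines mark a log2 fold change of 0.5 in either direction.

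Of the breakdown enzymes, Cyp26a1 (mm10 chr19:37697798-37701536, plus strand) was lower in null embryos and Cyp26b1 was level. Cyp26a1, whose promoter holds the repeat shown above, was at 36.8, 44.6 and 51.1 CPM in WT, 29.2, 39.5 and 37.1 CPM in heterozygotes and 27.9, 35.8 and 23.6 CPM in null embryos. All null values lay below all WT values, the nearest being 35.8 and 36.8 CPM, and heterozygotes overlapped both. The log2 fold change of -0.61 in null embryos against WT (SE 0.180) did not pass the edgeR test (adjusted p = 0.203), and did pass DESeq2's (adjusted p = 0.0224). It stayed between -0.78 and -0.47 when each embryo was left out, and was -0.68 without the mesenchyme-rich libraries. In heterozygotes against WT it was -0.33 (SE 0.135, edgeR adjusted p = 0.341), and -0.53 without the mesenchyme-rich libraries (edgeR adjusted p = 0.9998).

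Cyp26b1, the breakdown enzyme with the most RNA per length, was at 246, 217 and 219 CPM in WT, 244, 216 and 238 CPM in heterozygotes and 241, 213 and 201 CPM in null embryos. The genotypes overlapped almost wholly, with -0.06 on the log2 scale for null against WT (SE 0.0915, edgeR adjusted p = 0.824). It had the smallest spread of the 10 genes, with 1.23 times between its highest and lowest library.

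A further breakdown enzyme, Cyp26c1, lies next to Cyp26a1 on chromosome 19 and was read as a relative from the list of retinoid supply genes. It was at 31.1, 42.8 and 38.8 CPM in WT, 27.0, 37.6 and 29.5 CPM in heterozygotes and 18.2, 17.0 and 17.5 CPM in null embryos. Null values lay below those of both other genotypes. It fell in null embryos against WT (log2 fold change -1.10, SE 0.137, edgeR adjusted p = 0.00847) and against heterozygotes (log2 fold change -0.84, SE 0.138, edgeR adjusted p = 0.0456), and was at -0.26 in heterozygotes against WT (SE 0.142, edgeR adjusted p = 0.489). Without the mesenchyme-rich libraries the null values were -1.13 against WT and -0.83 against heterozygotes, with edgeR adjusted p = 0.0243 and 0.0368. The call against WT was lost without WT 2 (edgeR adjusted p = 0.0583), and that against heterozygotes was kept in 1 of the 6 fits that left out an embryo (edgeR adjusted p from 0.0380 to 0.223) and missed the threshold with limma-voom (adjusted p = 0.0516). Over the 9 libraries its log2 level had an r of -0.79 with the outer sulcus list, 0.71 with the melanocyte list and -0.68 with the roof list, and of -0.18, 0.39 and -0.17 after each genotype's mean was removed, and their part was not tested.

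Per length, the Aldh1a genes summed to 31.7, 34.4 and 52.6 RPKM in WT, 40.1, 56.3 and 34.8 RPKM in heterozygotes and 67.7, 56.2 and 83.7 RPKM in null embryos. Cyp26a1 and Cyp26b1 together were at 64.5, 63.1 and 66.8 RPKM in WT, 60.3, 60.2 and 63.1 RPKM in heterozygotes and 59.0, 57.9 and 49.4 RPKM in null embryos. The ratio of the sums was 0.492, 0.545 and 0.787 in WT, 0.664, 0.935 and 0.552 in heterozygotes and 1.15, 0.971 and 1.69 in null embryos. The null ratios lay above all others. Within the Aldh1a sum, Aldh1a3 held 52.4% to 75.2% in WT and 41.8% to 70.8% in null embryos, so the sum moved with the variable gene as well as with Aldh1a1. These sums are a description of RNA, with no test, and say nothing of enzyme activity.

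**Figure D3:**
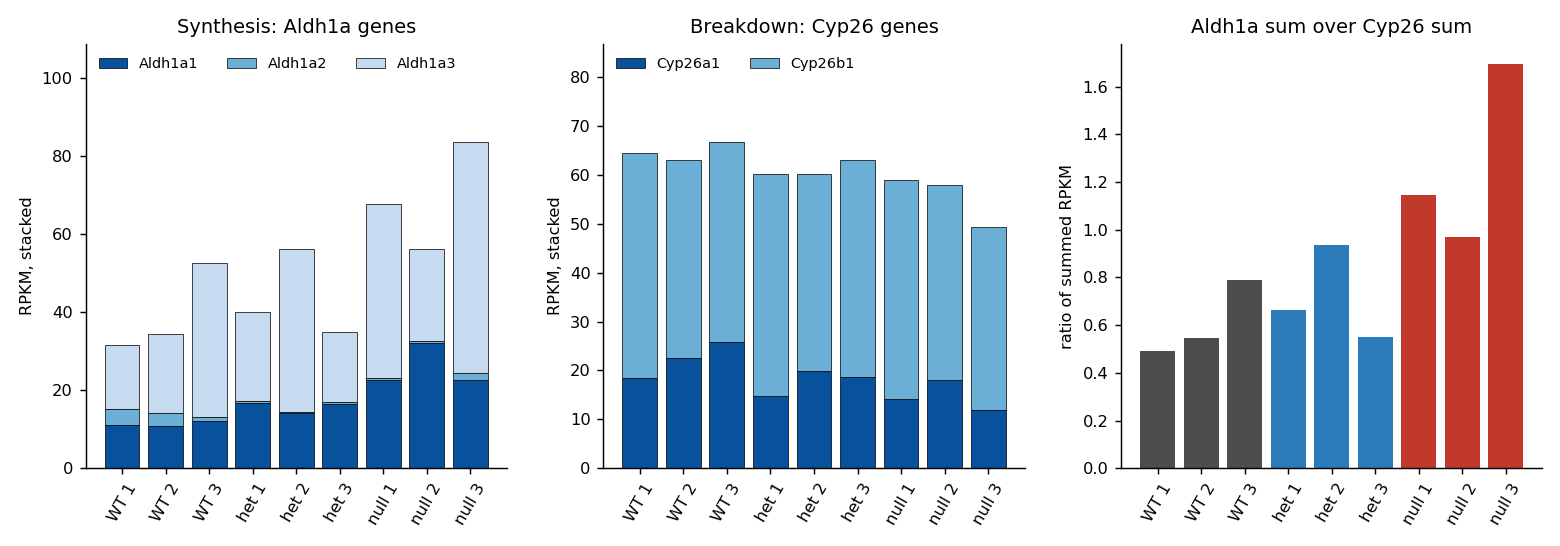
Stacked RPKM of the Aldh1a genes (left) and of Cyp26a1 and Cyp26b1 (middle) in each library, and the ratio of the sums (right, bars from 0). The ratio lies between 0.971 and 1.69 in the null embryos and between 0.492 and 0.935 in the other 6 libraries, while the Cyp26 sum spans 49.4 to 66.8 RPKM.

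The binding proteins differed in level and in stability. Crabp2 was at 161, 168 and 155 CPM in WT, 139, 152 and 153 CPM in heterozygotes and 117, 166 and 112 CPM in null embryos. Heterozygotes lay narrowly below WT (log2 fold change -0.13, SE 0.0519, edgeR adjusted p = 0.329), while null embryo 2 lay within the WT range (log2 fold change of null against WT -0.30, SE 0.147, edgeR adjusted p = 0.478). Without null 2, the latter was -0.49 with an edgeR adjusted p of 0.0213, short of the fold threshold, and without the 3 mesenchyme-rich libraries it was -0.12 (edgeR adjusted p = 0.846).

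Crabp1, the other binding protein, was lowest in 2 of the null embryos. It was at 16.0, 8.50 and 5.29 CPM in WT, 6.10, 2.70 and 4.53 CPM in heterozygotes and 0.784, 0.290 and 8.25 CPM in null embryos, the last of these from null 3. Null 1 and null 2, at 19 and 9 counts, lay below all other libraries, and null 3 lay within the WT range. Between null and WT the log2 fold change came to -1.69 (SE 1.02, edgeR adjusted p = 0.574). Without null 3 it was -4.24 (edgeR adjusted p = 0.0130), where 2.51% of 17768 genes were counted as changed. In the fit without the 3 mesenchyme-rich libraries it was -3.34 against WT (edgeR adjusted p = 0.0199) and -3.08 against heterozygotes (edgeR adjusted p = 0.0147). Null against heterozygotes gave -0.52 on all 6 libraries (SE 0.964, edgeR adjusted p = 0.849) and, without null 3, -3.09 (edgeR adjusted p = 0.0207), with 1.03% of 17639 genes counted as changed. Between heterozygotes and WT it was -1.16 (SE 0.390, edgeR adjusted p = 0.228), and -0.25 without the mesenchyme-rich libraries (edgeR adjusted p = 0.9998). The log2 level of Crabp1 had an r of 0.69 with the mesenchyme list over the 9 libraries, and of 0.83 after each genotype's mean was removed. Other lists moved with it as much or more, at -0.88 for the outer sulcus, -0.85 for the roof, 0.76 for immune cells, -0.74 for prosensory cells and 0.73 for melanocytes. Leaving out null 3 was 1 of the 6 fits that each left out an embryo, while the fit without all 3 mesenchyme-rich libraries was chosen after the data were seen. The part of these tissues in the difference was not tested.

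**Figure D4:**
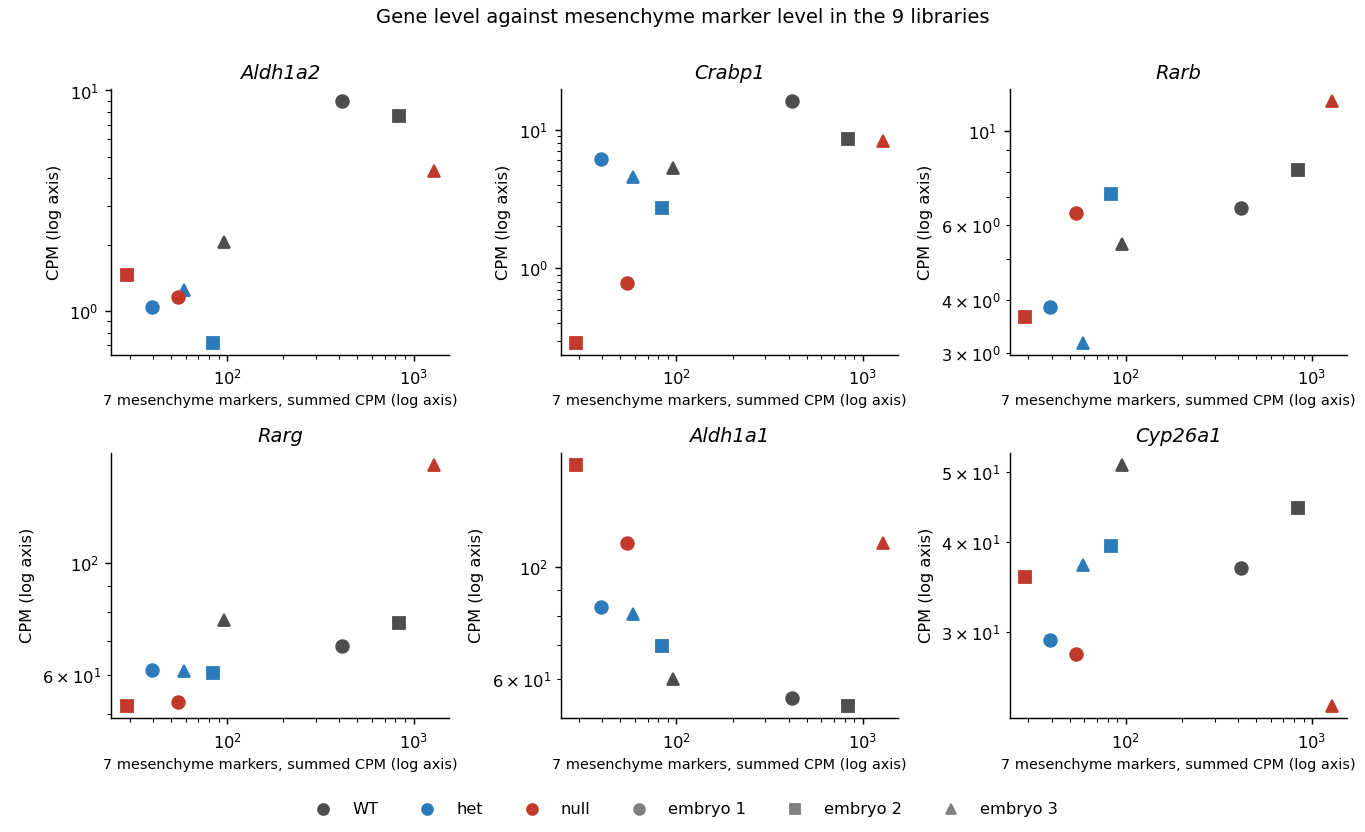
Level of 6 genes in CPM (vertical, log axis) against the summed CPM of 7 mesenchyme markers (horizontal, log axis) in the 9 libraries, with genotype by colour and embryo by symbol. WT 1, WT 2 and null 3 lie at 415 CPM or more on the horizontal axis and hold the 3 highest levels of Aldh1a2, while null 1 and null 2 hold the lowest of Crabp1.

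With all libraries of a pair, neither edgeR, DESeq2 nor limma-voom put any of the 3 receptors past both thresholds. Rara (mm10 chr11:98927818-98974942, plus strand), the broadly expressed receptor, was at 82.9, 99.5 and 98.8 CPM in WT, 93.8, 88.8 and 93.3 CPM in heterozygotes and 101, 106 and 112 CPM in null embryos. Null values lay narrowly above those of both other genotypes, by 0.17 against WT (SE 0.0952, edgeR adjusted p = 0.522) and 0.21 against heterozygotes (SE 0.0767, edgeR adjusted p = 0.370) on the log2 scale. Without the mesenchyme-rich libraries these values were 0.07 and 0.17.

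Rarg, the receptor known for its role in cartilage and skin, was at 68.4, 76.1 and 77.1 CPM in WT, 61.4, 60.5 and 60.9 CPM in heterozygotes and 53.0, 51.9 and 157 CPM in null embryos. Heterozygotes lay below WT with little spread (log2 fold change -0.28, SE 0.0562, edgeR adjusted p = 0.0712), a difference under the fold threshold for which DESeq2 gave an adjusted p of 0.00725. Null 1 and null 2 lay below all heterozygotes, and null 3, the library with 1612 CPM of cartilage markers, lay above all others. Between null and WT the log2 fold change came to 0.23 with all 6 libraries (SE 0.399, edgeR adjusted p = 0.855), -0.50 without null 3 (edgeR adjusted p = 0.0452, short of the fold threshold of 0.5) and -0.55 without the 3 mesenchyme-rich libraries (edgeR adjusted p = 0.0755). Over the 9 libraries the log2 level of Rarg had an r of 0.86 with the cartilage list and 0.77 with the mesenchyme list. The mean log2 level of the cartilage list, chosen after the data were seen, was 6.70 in null 3 and -0.68 to 1.42 elsewhere. Null 3 therefore weighs heavily in that r. Other lists moved with Rarg as well, at 0.82 for neurons, -0.77 for prosensory cells and -0.73 for the duct epithelium. The part of cartilage or other tissue RNA in the null 3 value was not tested.

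Rarb, often induced by retinoic acid itself, was at 6.59, 8.07 and 5.42 CPM in WT, 3.85, 7.10 and 3.18 CPM in heterozygotes and 6.39, 3.65 and 11.7 CPM in null embryos. The genotypes overlapped, and null 3 was again highest. Between null and WT the log2 fold change came to 0.11 (SE 0.392, edgeR adjusted p = 0.936) and -0.42 without null 3 (edgeR adjusted p = 0.531). Its log2 level had an r of 0.82 with the mesenchyme list, both over the 9 libraries and after each genotype's mean was removed. The overlapping gene Top2b was at -0.19 between null and WT (SE 0.0803, edgeR adjusted p = 0.389).

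**Figure D5:**
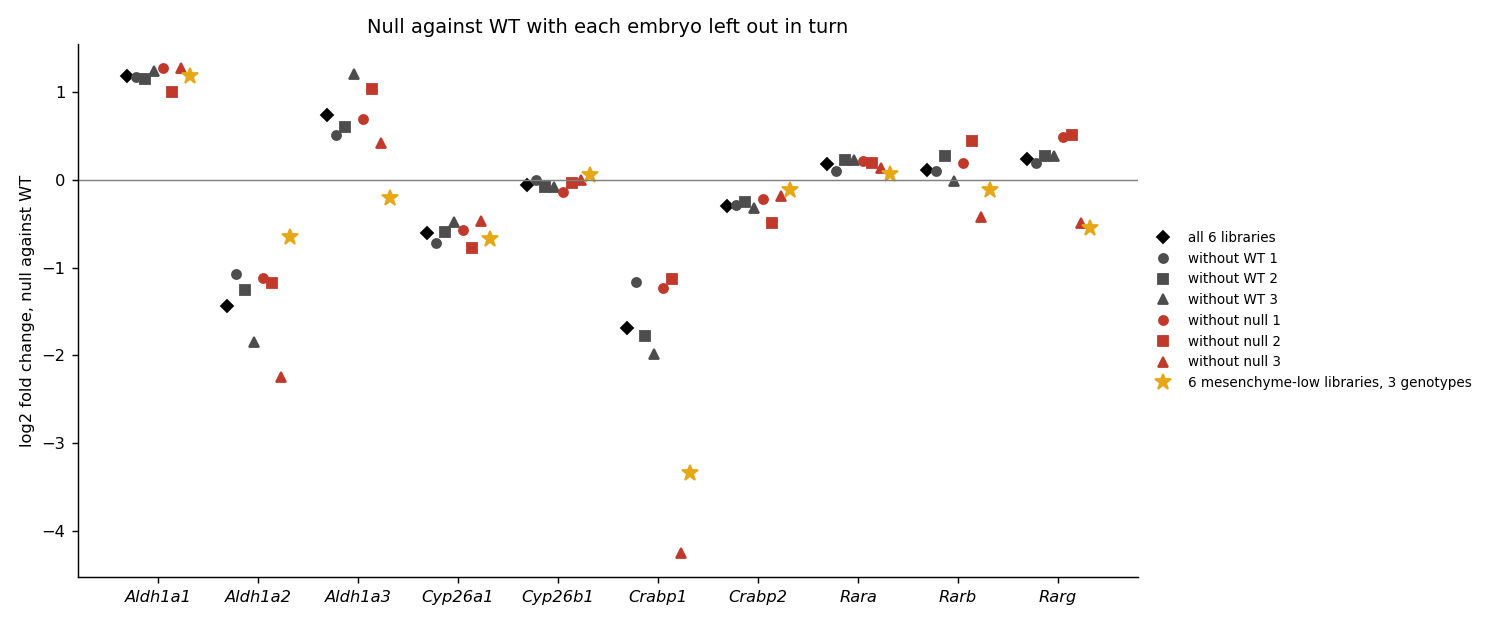
Log2 fold change of each gene in null against WT (vertical axis) with all 6 libraries (black diamonds), with each embryo left out in turn (grey and red symbols) and in the 6 libraries low in mesenchyme RNA (yellow stars). Aldh1a1 stays between 0.99 and 1.27 with an embryo left out, Crabp1 moves from -1.69 to -4.24 without null 3, and Rarg turns from 0.23 to -0.50.

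Counted over the list, 2 of the 10 genes had an unadjusted p under 0.05 in null against WT, beside 12.2% of all genes tested, and 5 of the 10 genes had a positive and 5 a negative log2 fold change, with a median of 0.02 beside 0.01 over all genes tested. The groups did not overlap for 3 of the 10 (Aldh1a1 and Rara higher, Cyp26a1 lower), beside 19.0% of all genes tested. In heterozygotes against WT, edgeR called 0 of the 10, beside 0.151% of 17269 genes, while 6 had an unadjusted p under 0.05, beside 13.1% of all genes tested. DESeq2 called 1 (Aldh1a2) among 297 genes in all, against 26 for edgeR, and limma-voom called 0 of the 10. In this pair 4 of the 10 did not overlap (Aldh1a1 higher, with Aldh1a2, Rarg and Crabp2 lower), beside 18.0%, and the median was -0.20 beside 2.94e-05 over all genes tested. In null against heterozygotes edgeR called 0 of the 10, beside 0.615% of 17067 genes, while 3 had an unadjusted p under 0.05, beside 11.4% of all genes tested, DESeq2 called 1 (Aldh1a1) among 361 genes in all, against 105 for edgeR, and limma-voom called 0 of the 10. For 2 of the 10, Aldh1a1 and Rara, the groups did not overlap, beside 18.2%, and the median was 0.36 beside 0.01 over all genes tested. The median was not computed for the fit without the mesenchyme-rich libraries. There Rarb moved from 0.62 to 0.08, Rarg from 0.52 to -0.21, Aldh1a2 from 1.195 to 0.39 and Aldh1a3 from 0.63 to 0.31. Crabp1 moved from -0.52 to -3.08, Aldh1a1 from 0.71 to 0.80, Cyp26a1 from -0.28 to -0.14 and Crabp2 from -0.17 to -0.055. Rara and Cyp26b1 shifted less.

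The wider pathway was read from 3 further lists. Of 16 genes of retinoid uptake, storage and conversion, 9 were tested, and Cyp26c1 was the single call of edgeR in null against WT and in null against heterozygotes, the latter not made by limma-voom. Of all genes tested, 1.71% and 0.615% were called in these pairs. Of the 9 genes, 5 had an unadjusted p under 0.05 in null against WT, where 12.2% of all genes tested had one. Stra6, the membrane receptor for retinol bound to its carrier, was at 58.2, 61.6 and 64.3 CPM in WT, 72.7, 72.2 and 65.7 CPM in heterozygotes and 53.3, 48.5 and 55.8 CPM in null embryos. Its null values lay below those of both other genotypes and did not pass the test against WT (log2 fold change -0.23, SE 0.0876, edgeR adjusted p = 0.339). Rdh10, which makes retinaldehyde from retinol, overlapped between null and WT at 0.26 (SE 0.156, edgeR adjusted p = 0.576), and Dhrs3, which turns it back, at -0.13 (SE 0.169, edgeR adjusted p = 0.813).

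Of 11 receptor partners and cofactors, all were tested, and edgeR, DESeq2 and limma-voom each called 0 in the 3 comparisons, with 1 unadjusted p under 0.05 in null against WT and 2 in each of the others, beside 12.2%, 13.1% and 11.4% of all genes tested. Log2 fold changes between null and WT ran from -0.49 for the coactivator Ncoa1 (edgeR adjusted p = 0.104) to 0.16 for the fatty acid-binding protein Fabp5. Of 13 genes known to respond to retinoic acid, 9 were tested in null against WT and 8 in null against heterozygotes. An unadjusted p under 0.05 was found for 2 of the 9 and 4 of the 8, beside 12.2% and 11.4% of all genes tested, and edgeR called 0 and 1 (Meis2), beside 1.71% and 0.615%. Their median log2 fold change was -0.03 in null against WT and 0.43 in null against heterozygotes. Hoxb1 and Stra8 were at 0 counts in all 9 libraries.

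Meis2, a homeobox gene of this list, was higher in null embryos, at 35.3, 38.8 and 45.2 CPM in WT, 40.4, 39.1 and 38.3 CPM in heterozygotes and 58.1, 57.0 and 68.7 CPM in null embryos. It is also a roof gene in this tissue, as the study lists it among the genes most enriched in roof cells of WT ducts. Null values lay above all others, and the change passed the test against heterozygotes (log2 fold change 0.64, SE 0.0966, edgeR adjusted p = 0.0323) and narrowly missed it against WT (0.62, SE 0.122, edgeR adjusted p = 0.0547, with DESeq2 calling it). The call against heterozygotes held without null 2 or null 3 and was lost without null 1 or any one heterozygote (edgeR adjusted p from 0.0558 to 0.223). Of the roof markers given above, Oc90 was higher in each null embryo than in the other 6. The mean log2 level of the roof list was 7.97, 8.13 and 7.84 in null 1, null 2 and null 3. In heterozygotes it was 7.83 to 7.93 and in WT 7.62 to 7.87. The part of roof cells in the Meis2 change was not tested. Tgm2, a transglutaminase, was at 90.1 CPM in null 3 and at 1.46 to 5.40 CPM in the other 8 libraries, so its log2 fold change of 2.99 in null against WT (SE 1.43, edgeR adjusted p = 0.459) rests on that library with cartilage RNA. The remaining list members tested in null against WT had edgeR adjusted p-values above the threshold.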

How the data were processed

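Cochlear duct RNA was measured in 9 E14.5 mouse embryos. The authors deposited whole-number read counts for each Ensembl gene, without normalization. Their processing notes name cutadapt 1.13, STAR, HTSeq 0.6.1p1, DESeq2 and mm10. The annotation release and strand setting are not given in the sources used here. Symbols and positions came from GENCODE M21 (54165 of 54232 genes). Genotypes came from the labels.

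Counts of each pair of genotypes were fitted with edgeR 4.0.16 (R 4.3.3) with TMM normalization, filterByExpr (minimum count 10) and the quasi-likelihood test, with Benjamini-Hochberg adjustment over all genes tested, and log2 CPM used a prior count of 2. Genes were called at an adjusted p below 0.05 with a log2 fold change beyond 0.5 in either direction. The edgeR fit was also run on simulated null and WT counts with set fold changes. That run checks only the recovery of those changes and has no differences in tissue content set between libraries. Alternatives were DESeq2 1.42.0, limma-voom (limma 3.58.1), RLE or no composition normalization, no filter on low counts, a mean count over 100, a joint fit of all 9 libraries, a block for the replicate number, and each embryo left out. A fit of 6 libraries low in mesenchyme markers and the cartilage list were added after seeing the data. The 10 genes and the lists were chosen with earlier results of these data known. Genes of the lists were named if called in any comparison, as examples chosen for their role, or where a value rests on a single library or few counts. The 3 nearest genes in pattern were named for each of the 10 called in null against WT. Counts of any pair of libraries of one genotype differed by more than sampling noise (chi-square per gene of 5.57 to 66.1). Pearson r values are across libraries and describe them only.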

Additional observations from a re-analysis of the deposited data

How the results depend on the processing

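Over all alternatives, 427 of 447 log2 fold changes of the 10 genes kept their direction. Aldh1a1 in null against WT was called in each of the 8 alternatives that kept all embryos and in 4 of the 6 fits that left out an embryo. Aldh1a2, Crabp1 and Rarb had the fewest counts of the 10 genes, at most 432 in a library, and 3 embryos per genotype limit all genes. How far depth limits these low genes was not tested. Causes of the changes below were not tested.

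The number of the 10 genes called in null against WT (1) was 2 with DESeq2 (with Cyp26a1), 2 in the 6 libraries low in mesenchyme markers (with Crabp1) and 0 to 2 without 1 embryo. In heterozygotes against WT (0) it was 1 with DESeq2, 2 with no filter on low counts and 0 to 3 without 1 embryo. In null against heterozygotes (0) it was 1 with DESeq2, with all 9 libraries in one fit and with no filter on low counts, 2 in the libraries low in mesenchyme markers and 0 to 2 without 1 embryo. The called genes of the other lists in null against WT (1) were 2 with DESeq2, all 9 libraries, no composition normalization or no filter on low counts, and 0 to 2 without 1 embryo. In heterozygotes against WT (0) they were 2 with no filter on low counts and 0 to 2 without 1 embryo, and in null against heterozygotes (2) 1 with limma-voom, 3 with no filter on low counts and 0 to 2 without 1 embryo.

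Of all genes, 293 were called in null against WT, 609 with DESeq2, 468 with all 9 libraries, 476 with no filter on low counts and 68 to 446 without 1 embryo. In heterozygotes against WT 26 were called, 297 with DESeq2, 0 with all 9 libraries, 11 with limma-voom, 684 with no filter on low counts, 14 in the libraries low in mesenchyme markers and 0 to 505 without 1 embryo, the highest without WT 3. In null against heterozygotes 105 were called, 361 with DESeq2, 164 with all 9 libraries, 366 with no filter on low counts, 201 in the libraries low in mesenchyme markers and 12 to 182 without 1 embryo.

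Directions turned for genes that did not pass the test. In null against WT, Rarb was -0.073 with limma-voom, and in the libraries low in mesenchyme markers Rarb was -0.12, Rarg -0.55, Aldh1a3 -0.21 and Cyp26b1 0.054. In those libraries Aldh1a3 was -0.52 in heterozygotes against WT and Rarg -0.21 in null against heterozygotes. Without 1 embryo, Rarb ranged from -0.42 to 0.44 and Rarg from -0.50 to 0.51 in null against WT, Aldh1a3 from -0.33 to 0.58, Cyp26b1 from -0.0053 to 0.090 and Rara from -0.11 to 0.017 in heterozygotes against WT, and Aldh1a7 from -0.012 to 0.24, Crabp1 from -3.09 to 0.030 and Rarg from -0.22 to 0.79 in null against heterozygotes.

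The 3 embryos of a genotype are described as littermates, and nothing states that embryos of one number share more than that number. Deviations from genotype means of same-numbered embryos correlated at -0.28 to 0.01 between WT and null, -0.06 to 0.20 between WT and heterozygote and -0.12 to 0.14 between heterozygote and null, so the numbers were not taken as pairs. With the replicate number as a block, 133 genes were called in null against WT, 197 in heterozygotes against WT and 52 in null against heterozygotes. Of the 10 genes, the block called 1 (Aldh1a1), 1 (Aldh1a2) and 0. The called genes of the other lists in null against heterozygotes fell to 0, and Rarb in null against WT was -0.025.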
